A study of Mus musculus with 19 samples.

Results

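The unoperated left ventricles of male JP2NT-OE mice and their male control littermates were compared by RNA sequencing. The comparison used every library whose deposited table belongs to an unoperated heart, 3 from JP2NT-OE and 3 from control mice. These are 6 of the 12 RNA-seq libraries of the series, which has 19 samples in all. The JP2NT-OE mice carried an HA-tagged N-terminal truncate of junctophilin-2 driven by the α-MHC promoter, which restricts a transgene to heart muscle cells. The controls were littermates that lacked it, and both genotypes were harvested at 12 weeks without surgery. The 6 libraries of hearts banded around the aorta (TAB) at 9 weeks and taken 3 weeks later, 3 for each genotype, are used below to read the same transcripts in other hearts. The labels number the replicates without tying them to single mice, and every p-value below reflects library-to-library spread, which may be technical. Fewer cells of a type and less RNA per cell cannot be told apart in such bulk tissue.

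Junctophilin-2 anchors the sarcoplasmic reticulum of heart muscle cells to their transverse tubules, which keeps calcium channels and release channels close to each other. Calcium-activated proteases of stressed hearts cut the protein, and the N-terminal fragment released by that cut can enter the nucleus. MEF2 factors, against which the series also raised chromatin samples, are transcription factors that activate growth and remodelling genes in heart muscle. The comparison at baseline asks what the fragment alone changes before any load is placed on the heart.

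The deposited tables list Ensembl transcript IDs with no gene names beside them, and none of the IDs matched the tables of gene names used here. The members described below are therefore transcripts. At most 2 IDs in each direction are printed, and other transcripts are referred to by their length in bases. The left ventricular origin of the libraries and the level of the transgene's own gene were not read by name here. Total estimated counts per library ran from 37662212 to 44173258 in control and from 41844570 to 44634328 in JP2NT-OE hearts. Levels are given as CPM, a library's counts scaled to a common TMM-adjusted total, and differences as log2 fold changes, JP2NT-OE minus control, with their SE.

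Few transcripts separated the genotypes in unoperated ventricles. Of 43256 transcripts tested, 3 passed an adjusted p of 0.05 (0.00694%), and all 3 were higher in JP2NT-OE. They were an abundant transcript raised by less than 2-fold, a scarce one raised more than 10-fold, and one that had no counts in any unoperated control heart. As no ID was paired with a gene, whether reads of the junctophilin-2 transgene itself fall on any of the 3 was not tested. No transcript passed in the lower direction by edgeR, where 913 (2.11%) had an unadjusted p under 0.05, against 984 (2.27%) in the higher direction and 1897 (4.39%) in all. DESeq2 called 134 of the 42232 transcripts to which it gave an adjusted p (0.317%), 86 higher (0.204%) and 48 lower (0.114%).

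**Figure D1:**
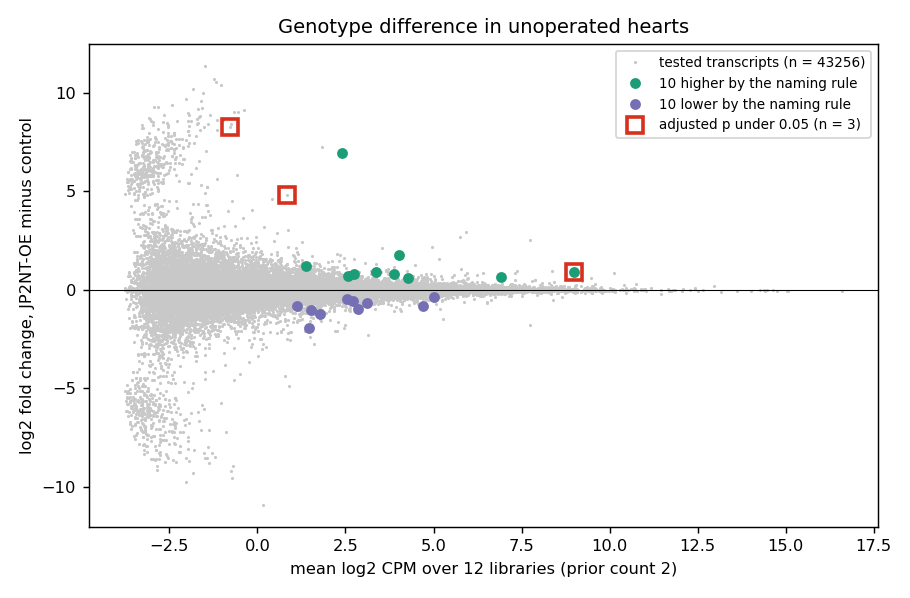
Log2 fold change between JP2NT-OE and control unoperated hearts (vertical axis) against mean log2 CPM over 12 libraries (horizontal axis) for the 43256 tested transcripts (grey). Squares mark the 3 with an adjusted p under 0.05, and filled points the 10 higher and 10 lower transcripts taken by the naming rule. The cloud narrows around 0 as the level increases.

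ENSMUST00000017961.10, of 4211 bases, was the abundant one. In control hearts it stood at 370, 421 and 403 CPM, and in JP2NT-OE hearts at 706, 798 and 716 CPM. The lowest JP2NT-OE library thus lay far above the highest control library. The difference was 0.89 on the log2 scale (SE 0.10, edgeR adjusted p = 0.0428), a 1.86-fold rise with a 95% interval of 1.60 to 2.16. Per length, it stood at 190 ± 15.6 TPM in JP2NT-OE and 101 ± 6.56 TPM in control hearts (SD, n = 3). The difference was present in the banded hearts too, where control libraries stood at 337, 388 and 418 CPM and JP2NT-OE libraries at 563, 555 and 670 CPM. There it was 0.65 on the log2 scale (SE 0.10, edgeR adjusted p = 0.0295), and the change between conditions was not past the threshold (-0.25, edgeR adjusted p = 0.672).

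ENSMUST00000027269.6, of 2705 bases, was scarce in control hearts, at 0.341, 0.344 and 0.272 CPM. These levels rest on 14, 14 and 10 estimated counts. In JP2NT-OE hearts it stood at 7.95, 12.3 and 7.48 CPM, far above every control library. The difference was 4.84 on the log2 scale (SE 0.49, edgeR adjusted p = 0.0422), a 28.6-fold rise whose 95% interval ran from 13.5 to 60.5. After TAB the control libraries stood at 0.188, 0.796 and 0.977 CPM and the JP2NT-OE libraries at 4.92, 5.09 and 6.02 CPM, again without overlap (log2 fold change 3.02, SE 0.44, edgeR adjusted p = 0.0275).

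The third called transcript, of 4150 bases, had a different pattern. It was at 0 in all 3 control hearts and at 0.536, 0.976 and 1.20 CPM in the JP2NT-OE hearts, from 21.6, 39.3 and 52.3 estimated counts. Set against the level that 3 counts in a single control library would give, its JP2NT-OE mean was 11.1-fold higher. That floor covers counting error only, so this fold is no lower bound where reads are divided among similar transcripts. The fitted baseline difference passed (edgeR adjusted p = 0.0422). In banded control hearts it stood at 1.95, 2.66 and 1.30 CPM, and in banded JP2NT-OE hearts at 1.42, 1.62 and 1.24 CPM. The unoperated control group was thus the one group without it, and the banded genotypes overlapped. The change of the genotype difference between conditions just missed the threshold (edgeR adjusted p = 0.0522). The file divides reads shared by similar transcripts among them, so a 0 for a transcript does not show that its gene was silent.

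The next transcript by p-value, of 653 bases, stood just outside the threshold (edgeR adjusted p = 0.0768). It was at 0 in the 3 unoperated control libraries and at 0.805, 1.501 and 1.85 CPM in JP2NT-OE. The banded control libraries stood at 0, 0 and 0.0227 CPM and the banded JP2NT-OE libraries at 1.11, 1.36 and 1.44 CPM, where the difference passed (edgeR adjusted p = 0.0190). It was present in every JP2NT-OE heart and all but absent from every control heart.

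The number of calls moved with single libraries. Without any 1 unoperated control library, or without JP2NT-OE baseline replicate 2, edgeR called 0 transcripts, with 1759 to 2476 at an unadjusted p under 0.05. Without JP2NT-OE baseline replicates 1 and 3 it called 7 and 8, of which 5 and 4 were lower and 2 in each case were among the 3 calls. The banded libraries share the estimate of the spread, and the count was 2, both among the 3 calls, without control TAB replicate 1 and 0 without any other 1 of them, with 1888 to 1965 at an unadjusted p under 0.05. In these fits the log2 fold change of ENSMUST00000017961.10 stayed between 0.84 and 0.94, and that of ENSMUST00000027269.6 between 4.58 and 4.97.

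**Figure D2:**
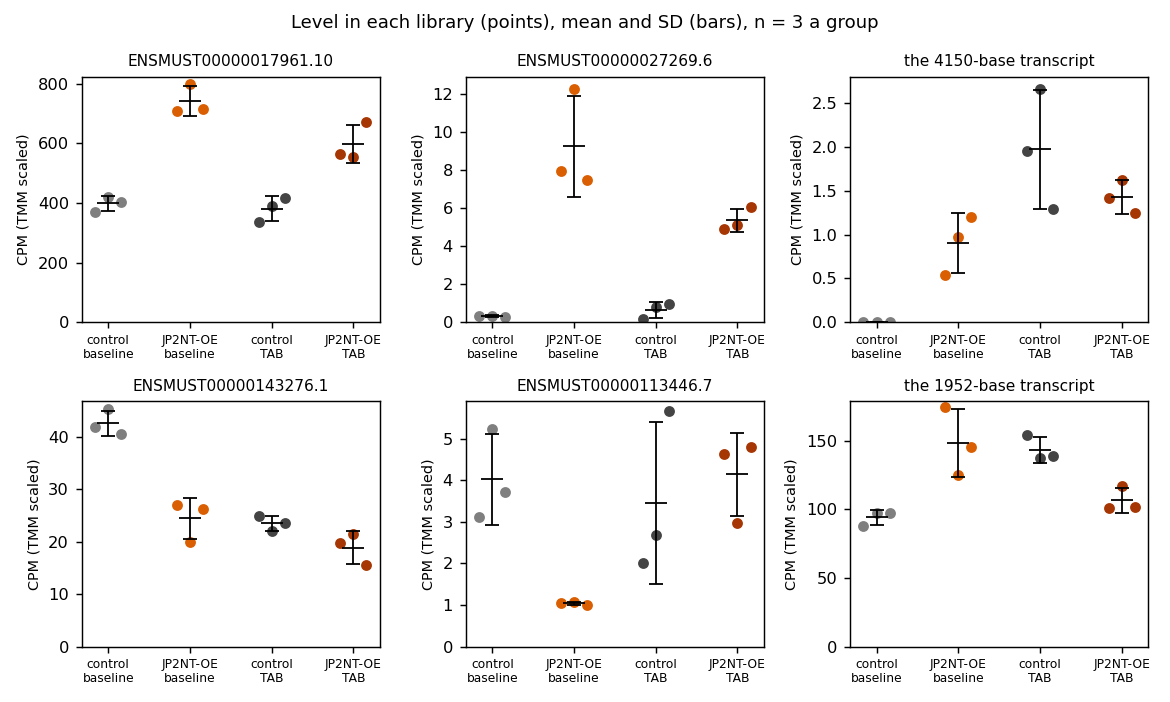
Level in CPM (vertical axis, from 0) of 6 transcripts in each of the 12 libraries (points), by genotype and condition (horizontal axis), with the mean and SD of 3 libraries (bars). ENSMUST00000017961.10 and ENSMUST00000027269.6 are higher in JP2NT-OE under both conditions, while the 4150-base transcript is at 0 in unoperated control hearts alone.

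Beyond these, the 10 higher and 10 lower transcripts with the smallest p-values were described, taken among the 18617 that averaged 1 or more in log2 CPM and had no overlap between the 3 and 3 unoperated libraries. Of all 18617, 5.14% were higher and 4.67% lower in JP2NT-OE without overlap, so the separation chose the members and is no finding. One of the 10 higher transcripts is ENSMUST00000017961.10, and the other 9 did not pass by edgeR, while DESeq2 gave each an adjusted p under 0.05. The genotype difference in banded hearts was not used for the choice. The banded libraries did enter it through the mean log2 CPM over 12 libraries and through the shared estimate of the spread. In banded hearts 8 of the 10 higher and 7 of the 10 lower had a difference of the same sign. Over all 18617, 45.8% had the same sign under both conditions, 4.39% had an unadjusted p under 0.05 at baseline and 17.3% had one after TAB.

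Among the higher ones, a 1370-base transcript was steady within each genotype. It stood at 1.88, 1.75 and 1.63 CPM in control and at 4.19, 4.10 and 3.74 CPM in JP2NT-OE hearts (log2 fold change 1.19, SE 0.15, edgeR adjusted p = 0.1102). In banded hearts it stood at 1.53, 1.93 and 1.70 against 4.03, 3.40 and 3.07 CPM, a difference of 1.02 that passed (SE 0.15, edgeR adjusted p = 0.0283). A 4155-base transcript stood at 12.4, 7.58 and 11.0 CPM in control and 20.9, 46.4 and 37.1 CPM in JP2NT-OE, and after TAB at 11.6, 5.97 and 13.3 against 20.9, 15.4 and 25.9 CPM. The genotypes did not overlap under either condition, but the JP2NT-OE libraries varied widely among themselves, and neither difference passed (edgeR adjusted p = 0.608 and 0.314).

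The mean of banded control hearts lay above that of unoperated control hearts for 7 of the 10 higher transcripts. Over all 18617 it lay on the JP2NT-OE side of the unoperated control mean for 63.2%, and the unoperated control libraries enter both differences. A 1923-base transcript stood at 6.49 ± 0.863 CPM in unoperated control hearts (SD, n = 3) and at 12.0 ± 0.832, 11.0 ± 1.85 and 12.8 ± 1.02 CPM in unoperated JP2NT-OE, banded control and banded JP2NT-OE hearts. A 3306-base transcript stood at 9.73 ± 2.11 CPM in unoperated controls and at 16.9 ± 1.77, 15.9 ± 0.177 and 17.7 ± 1.39 CPM in the same order (SD, n = 3). The baseline difference of these transcripts did not pass (edgeR adjusted p = 0.198 and 0.349). A 1952-base transcript, at 87.9, 97.1 and 97.3 CPM in control and 174, 125 and 146 CPM in JP2NT-OE hearts, had the opposite order after TAB. There the control libraries stood at 154, 137 and 139 CPM and the JP2NT-OE libraries at 101, 117 and 102 CPM. The change of sign was 1.08 in size on the log2 scale and did not pass over all transcripts (-1.08, edgeR adjusted p = 0.0976). A 4112-base transcript stood at 0.244, 0 and 0 CPM in control and at 18.2, 11.8 and 1.98 CPM in JP2NT-OE, so that its JP2NT-OE libraries spanned a wide range (edgeR adjusted p = 0.167). It was higher still in banded hearts of both genotypes, at 44.4 ± 3.37 CPM in control and 28.2 ± 4.73 CPM in JP2NT-OE (SD, n = 3). Across settings its log2 fold change at baseline ran from 1.68 to 11.85, with an adjusted p of 1.7e-06 by DESeq2 and of 0.00621 by edgeR when JP2NT-OE baseline replicate 3 was left out.

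The 10 lower transcripts had log2 fold changes from -1.95 to -0.37, and none passed (edgeR adjusted p = 0.321 to 0.755, with DESeq2 under 0.05 for each). ENSMUST00000143276.1, of 6680 bases, was at the head of them. It stood at 41.9, 45.2 and 40.6 CPM in control and 27.0, 19.99 and 26.2 CPM in JP2NT-OE hearts (log2 fold change -0.80, SE 0.13, edgeR adjusted p = 0.321). Banded libraries stood at 24.8, 22.0 and 23.5 CPM in control and 19.7, 21.4 and 15.5 CPM in JP2NT-OE. The unoperated control libraries were thus above all 9 others. ENSMUST00000113446.7, of 7860 bases, stood at 3.12, 5.24 and 3.72 CPM in control and at 1.05, 1.08 and 0.992 CPM in JP2NT-OE hearts (log2 fold change -1.95, SE 0.38, edgeR adjusted p = 0.547). Its estimated counts were 127.6, 212.6 and 137.5 in control and 42.54, 42.54 and 42.52 in JP2NT-OE hearts. Most of its estimates lay near multiples of 42.5 and are not independent reads. No weight is therefore placed on the evenness of the JP2NT-OE libraries or on the size of the difference. After TAB the genotypes overlapped, at 2.00, 2.68 and 5.66 against 4.63, 2.98 and 4.80 CPM. A 3456-base transcript was the one of the 10 that passed after TAB. It stood at 30.4, 29.1 and 29.1 CPM against 21.7, 22.9 and 24.0 CPM at baseline, where its difference was -0.37 on the log2 scale (SE 0.08, edgeR adjusted p = 0.755). After TAB it stood at 41.8, 47.0 and 53.2 against 35.3, 33.6 and 34.5 CPM, and its difference was -0.46 (SE 0.08, edgeR adjusted p = 0.0442).

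The 3 calls and the 20 transcripts chosen by p-value, of which 1 is both, make 22, and 16 of them had the same sign after TAB. Of the 22, 4 passed there (edgeR), where 195 of all tested transcripts did (0.451%). Among the 18617 from which the 20 were taken, 180 passed after TAB. Both contrasts share the estimate of the spread, so these passes are not independent of the choice. The size of the difference was smaller after TAB for 21 of the 22, all but the 3456-base transcript. The baseline values chose the members, so no weight is placed on that count. The test of the change between conditions passed for none of the 22 by edgeR, with 15 at an unadjusted p under 0.05, and for 5 by DESeq2. Over all tested transcripts 1 passed it by edgeR (0.00231%) and 3741 had an unadjusted p under 0.05 (8.65%). Among the 18617 with a mean log2 CPM of at least 1, 2465 had one. The baseline difference that chose the 22 enters this test as well, so no weight is placed on their counts in it.

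**Figure D3:**
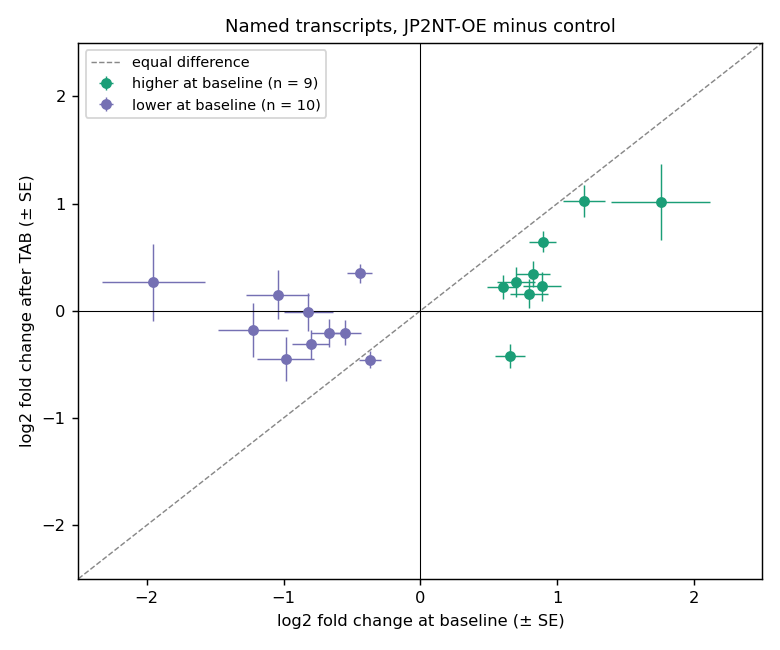
Log2 fold change of JP2NT-OE against control after TAB (vertical axis) and at baseline (horizontal axis), each ± SE, for the 19 named transcripts whose baseline difference was under 2.5 on the log2 scale in size. Most points lie nearer to 0 on the vertical than on the horizontal axis, and the dashed line marks equal differences.

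How far the data limit a difference was read from the 95% interval of each log2 fold change. Among the 18617 transcripts that averaged 1 or more in log2 CPM, the interval lay wholly within 2-fold for 16442 (88.3%) and within 1.5-fold for 65.4%. For the 2803 with a mean from 5 to 7 these shares were 98.2% and 92.6%. Below a mean of 1, where 24639 tested transcripts lie, the interval lay within 2-fold for 20.7%, so that a difference of that size was not excluded for most scarce transcripts. The median SE fell from 0.547 below a mean of 1 to 0.0761 at 7 and over. Of the 18617, 158 (0.849%) had a fitted difference of at least 2-fold, 88 higher and 70 lower. None of these passed by edgeR, 66 had an unadjusted p under 0.05 and DESeq2 called 16. After TAB 76 of the 158 had a difference of the same sign, beside the 45.8% of all 18617.

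**Figure D4:**
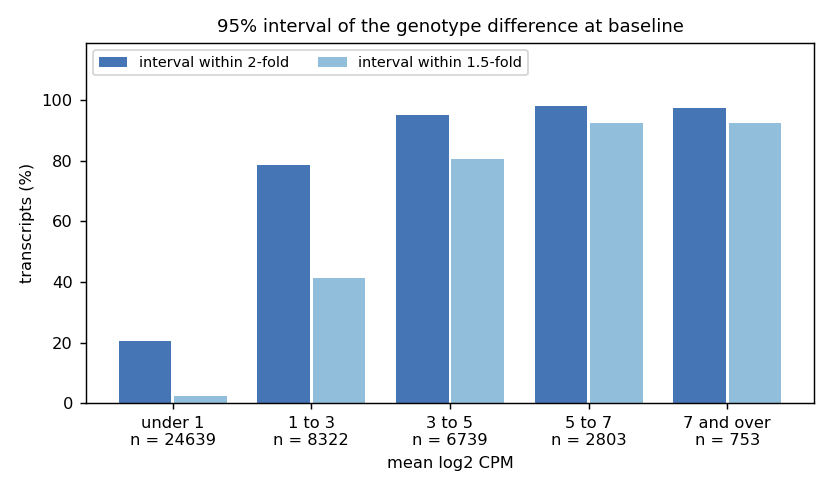
Share of tested transcripts (vertical axis, percent) whose 95% interval for the genotype difference at baseline lies within 2-fold (dark bars) or 1.5-fold (light bars), by mean log2 CPM (horizontal axis, with the number of transcripts). The share within 2-fold goes from 20.7% below 1 to 98.2% between 5 and 7.

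The most abundant transcripts barely differed. The 20 with the most counts in unoperated hearts had log2 fold changes from -0.09 to 0.19, and their 95% intervals all lay between 0.813-fold and 1.28-fold. One of them, of 1473 bases, had an unadjusted p under 0.05 and did not pass the adjusted test (log2 fold change 0.19, SE 0.08, edgeR adjusted p = 1). It stood at 6465, 7744 and 7561 CPM in control and at 8170, 8675 and 7947 CPM in JP2NT-OE. The 20 most abundant transcripts of each library took 42.5%, 43.1% and 40.5% of counts in control hearts and 42.3%, 41.5% and 40.2% in JP2NT-OE hearts. The groups overlapped, and the difference of -0.727 percentage points was within the spread between libraries (exact two-sided permutation p = 0.5, where 3 against 3 allows no less than 0.1). At least 10 estimated counts were found for 37158, 36724 and 36109 transcripts in control and for 37073, 36716 and 37581 in JP2NT-OE hearts, which overlapped as well (exact two-sided permutation p = 0.5). The median distance between libraries was similar across and within genotypes, but both the smallest and the largest distance lay across genotypes. Over the 18617 transcripts the root mean square difference of log2(CPM + 0.1) between 2 libraries was 0.446 to 0.525 for the 9 pairs across genotypes, 0.477 to 0.488 within control and 0.451 to 0.485 within JP2NT-OE. The medians were 0.471, 0.479 and 0.484 in the same order.

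Some transcripts were found in one genotype and not in the other. After rounding, 162 transcripts had 0 counts in all 3 unoperated control libraries and at least 3 in each unoperated JP2NT-OE library (0.168% of the 96626 in the tables), and 83 had the reverse pattern (0.0859%). With at least 10 counts these numbers were 42 (0.0435%) and 25 (0.0259%). Total counts were of the same order in both groups, although 1 control library was the smallest of the 6. Of the 162, 141 had a count in at least 1 banded control library, 34 had at least 3 counts in each of them, and 37 had at least 3 in each banded JP2NT-OE library. Of the 83, 71 had a count in at least 1 banded JP2NT-OE library, 14 had at least 3 counts in each of them, and 14 had at least 3 in each banded control library. At 3 counts or more, 5 transcripts were at 0 in all 6 control libraries and present in all 6 JP2NT-OE libraries, and 1 had the reverse pattern.

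The most abundant of those 5, of 1766 bases, had 42, 21 and 21 counts in unoperated and 42, 42 and 42 in banded JP2NT-OE libraries. These estimates move in steps of 21 counts and are not independent reads, so no lower bound of the fold and no weight on their evenness can be taken from them (edgeR adjusted p = 0.167 at baseline and 0.0253 after TAB). A 570-base transcript had 18, 29 and 7 counts at baseline and 19, 25 and 19 after TAB in JP2NT-OE (edgeR adjusted p = 0.571 and 0.0633). The other 3 had 3 to 13 counts in each JP2NT-OE library and were removed by the filter on low counts, as was the single reverse case of 533 bases, with 4 to 12 counts in each control library. These 6 were singled out after their values were seen, and zeros chosen in this way are a description of these libraries.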

How the data were processed

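The RNA-seq libraries were stranded and made from polyadenylated left ventricular RNA, per the labels' protocols. Build mm10, kallisto 0.42.5, cutadapt 1.8.1 and FastQC 0.11.3 are named in the submitters' processing notes without role or order; the transcript annotation is not given in the sources used here. Each of the 12 tables holds 96626 transcripts with the authors' estimated counts, which need not be whole because shared reads were divided, and the authors' TPM values, which are corrected for effective length and carry no depth.

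Estimated counts were rounded and tested with edgeR 4.0.16 (R 4.3.3). The filter filterByExpr kept 43256 transcripts and removed 53370. All 12 libraries entered 1 quasi-likelihood fit with TMM scaling and 1 mean per group (8 residual degrees of freedom); p-values were Benjamini-Hochberg adjusted over all transcripts tested. Mean log2 CPM used a prior count of 2. Each SE is the size of the log2 fold change divided by the square root of its F statistic. Intervals are 95% intervals for the spread between libraries; floors of 3 counts cover counting error only. The script was tested on simulated counts.

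Named transcripts are all calls, then the 10 in each direction with the smallest p among those with a mean log2 CPM of at least 1 and no overlap. The members and lists were chosen with earlier results of these data known. None of the IDs matched a gene name (0), so gene sums and 23 gene and marker lists were not run. Alternatives were DESeq2 1.42.0, limma 3.58.1 on log2(TPM + 1) and log2(TPM + 0.1), library totals, no filter, truncated counts, the baseline libraries alone, a replicate block and each library left out. The 7 chromatin samples were not analysed here.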

Additional observations from a re-analysis of the deposited data

How the results depend on the processing

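The number of transcripts called at baseline, 3 by edgeR, was 134 with DESeq2, 1 with the 6 baseline libraries alone (edgeR, 1446 with an unadjusted p under 0.05), 7 with limma on log2(TPM + 0.1), and between 0 and 8 when each of the 12 libraries was left out. With library totals alone, no filter, truncated counts or limma on log2(TPM + 1) it was 3. With a replicate block it was 0 (edgeR, 1528 with an unadjusted p under 0.05). Same-numbered libraries of the 2 genotypes deviated from their group means with correlations of -0.05, 0.02 and 0.09 at baseline, and not every library correlated best with its own number. With 3 libraries a group, these values cannot show whether same-numbered libraries share more than a number. The fit with a replicate block is therefore not set aside. The number of the 22 named transcripts with the same sign after TAB was 16, and 15 to 17 without 1 library. The number whose genotype difference changed between conditions was 0 by edgeR, 5 by DESeq2, and 0 or 1 without 1 library. The baseline difference that chose the 22 enters that test too. None of the 22 changed sign at baseline in any of the 20 settings, but ENSMUST00000017961.10 was past the threshold in 7 of them, ENSMUST00000027269.6 in 10 and the 4150-base transcript in 6. The log2 fold change of ENSMUST00000027269.6 was 2.05 with limma on log2(TPM + 1), which shrinks differences of scarce transcripts. The share of the 20 most abundant transcripts differed by -1.49 to -0.18 percentage points without 1 library. The number of detected transcripts differed by 182 to 707 without 1 library, and by -25.0 with a minimum of 1 TPM. The left-out banded libraries and the settings applied to banded hearts were chosen after seeing the data. The planned sums per gene were not run.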

Other observations

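The genotype difference at baseline and that after TAB rest on different libraries, so their signs can be set side by side. Among the 18617 transcripts that averaged 1 or more in log2 CPM, 817 had an unadjusted p under 0.05 at baseline, and 42.4% of these had the same sign after TAB, compared with 45.8% of all 18617. An unadjusted p under 0.05 under both conditions was found for 184 transcripts, of which 122 had opposite signs (66.3%) and 62 the same sign. Over all 18617, 10089 had opposite signs, as did 1860 of the 3219 with an unadjusted p under 0.05 after TAB. Of the 122, 74 were higher at baseline and lower after TAB, and 48 had the reverse order. The share with opposite signs was 58.2% to 72.0% when each of the 12 libraries was left out, lowest without control baseline replicate 3. Its standard error from leaving out each library (jackknife) was 12.9 percentage points. The split within the share depended on the scaling. Library totals gave 115 that were higher at baseline and lower after TAB and 25 in the reverse order. In the same order, limma gave 118 and 18 on log2(TPM + 1) and 128 and 18 on log2(TPM + 0.1). DESeq2 gave 96 and 58. Unadjusted p-values select by chance as well as by effect, and no test of this share was made.

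By length, unadjusted p-values under 0.05 at baseline were found for 3.95% of tested transcripts up to 1220 bases, 4.06% of those up to 2978 bases and 5.15% of longer ones. No test compared these shares. In the shortest part 279 were higher and 291 lower in JP2NT-OE, in the middle part 332 and 253, and in the longest part 373 and 369.

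DESeq2 called 86 transcripts higher and 48 lower at baseline, of 42232 with an adjusted p (0.317%). Of the 86, 43 were at 0 in all 3 unoperated control libraries, and of the 48, 21 were at 0 in all 3 unoperated JP2NT-OE libraries. A mean log2 CPM of at least 1 was reached by 29 of the 86 and 20 of the 48. The zeros entered the calls themselves and have no share over all tested transcripts beside them, so no weight is placed on them. After TAB, 45 of the 86 and 24 of the 48 had a difference of the same sign, beside 47.4% of all 43256 tested transcripts.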
